A study of Mus musculus with 14 samples.

Results

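Axon guidance ligands and receptors were taken by gene name, as semaphorins of classes 3 to 7, plexins, neuropilins, Eph receptors, ephrins, Slit ligands, Robo receptors, netrins and Unc5 receptors, which gave 67 of the 30503 genes in the count table. They comprised 34 ligands and 33 receptors. The data were bulk RNA-seq of 14 cultured clones, each grown from a tdTomato+ cell of mouse femur bone marrow. Fgfr3-WT clones (n = 5) came from Fgfr3-creER; R26R-tdTomato mice at postnatal day 23 (P23), and Fgfr3-p53 cKO clones, which also carried Trp53 fl/fl, came from mice at P28 (n = 5) or at 4 months (P4M, n = 4). Mice of all 3 groups received tamoxifen at P21. The Fgfr3 promoter drove the creER, so only cells that used it at the time of the pulse could recombine Trp53 and the reporter. The clones were at Passage 8, except those of P4M, which were at Passage 6 to 8. The labels do not say which clones came from the same mouse, so the p values below measure the spread between these clones. The names of all Fgfr3-WT libraries carried the number 1303 and those of all cKO libraries 2963, which the labels do not explain. Therefore this number, the genotype, the age of the mice, time in culture and survival of clones cannot be told apart in comparisons with Fgfr3-WT. Neither can age, mouse and passage be told apart between the P4M and P28 clones.

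Guidance molecules were first described in growing axons. Semaphorins signal through plexins, and the secreted class 3 members need a neuropilin as co-receptor. Ephrins are bound to the membrane and signal through Eph receptor tyrosine kinases on a neighbouring cell, often in both directions, while Slits act through Robo receptors and netrins through Dcc, neogenin and Unc5 receptors. In bone, Sema3a, Sema4d, ephrin-B2 with Ephb4, Slit3 and netrin-1 are known to pass between osteoblasts, osteoclasts, vessels and nerves.

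Trp53, the targeted gene, was at 55.0 ± 7.68 CPM (SD, n = 5) in Fgfr3-WT, where CPM are counts scaled to the size of the library. P28 clones held 2.47 ± 0.243 CPM (SD, n = 5) of it. In P4M the level was 2.09 ± 0.278 CPM (SD, n = 4). Library totals lay between 25688946 and 52857424 counts. Summed over 5 osteoblast markers (Col1a1, Runx2, Sp7, Alpl and Ibsp), the clones held 38.7 to 1333 CPM in Fgfr3-WT, 14900 to 22150 CPM in P28 and 8797 to 54050 CPM in P4M. Col1a1 alone reached 1030, 22000 and 50600 CPM in these groups, so the highest sums were mostly that gene. The sum of the 5 chondrocyte markers went the other way, with 741.9 to 22900 CPM, 170.3 to 1324 CPM and 23.0 to 54.5 CPM. Here Col2a1 alone reached 21600, 1300 and 48.9 CPM. Neither sum shows that its 5 markers moved together. Fgfr3-WT replicate 5 stood apart from the other Fgfr3-WT clones in having the highest osteoblast sum. The 5 reticular markers summed to 145.1 to 618 CPM in Fgfr3-WT, 480.1 to 709.6 CPM in P28 and 199 to 599.8 CPM in P4M. Endothelial, haematopoietic and neural cells use many guidance genes. Endothelial markers summed to at most 12.8 CPM, nearly all of it Kdr, and Cdh5 was at 0 in every clone. Haematopoietic markers reached at most 54.5 CPM, in Fgfr3-WT, and this was mostly Cd68. The Schwann and neural markers summed to 6.49 to 13.4 CPM in Fgfr3-WT, 15.8 to 24.7 CPM in P28 and 58.5 to 127 CPM in P4M, with Tubb3 as the highest gene in the cKO clones and Sox10 at 0 in all of these. The part of these shifts in the differences below was not tested. In bulk RNA, fewer cells that use a gene and less RNA per cell cannot be told apart.

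Per transcript length, receptors led in every group. TPM are counts scaled to transcript length and library size. Nrp2, a co-receptor for semaphorins and for vascular endothelial growth factor, had 147.2 ± 74.4 TPM (SD, n = 5) in Fgfr3-WT, 165.3 ± 36.0 TPM (SD, n = 5) in P28 and 215.0 ± 39.7 TPM (SD, n = 4) in P4M clones. Plxnb2, a receptor for class 4 semaphorins, had group means of 141.4, 141.2 and 139.1 TPM in the same order. Ephb6 had the highest mean in Fgfr3-WT, 173.9 ± 180.9 TPM (SD, n = 5), and was at 23.4 and 29.1 TPM in P28 and P4M. Unc5b had the highest mean in P4M, 233.5 ± 60.1 TPM (SD, n = 4), and was at 35.0 TPM in Fgfr3-WT and 78.5 TPM in P28. By mean, the leading ligand was Efna1 in Fgfr3-WT (22.8 TPM), Sema3a in P28 (55.8 TPM) and Sema7a in P4M (70.8 TPM). Over the 14 clones together, the leading members of the remaining families were Ntn1 (12.9 TPM), Slit2 (9.51 TPM) and Robo2 (9.10 TPM). Altogether 25 of the 67 genes reached 1 TPM in every clone, 10 stayed below 1 TPM in every clone, and 32 crossed that level between clones.

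**Figure D1:**
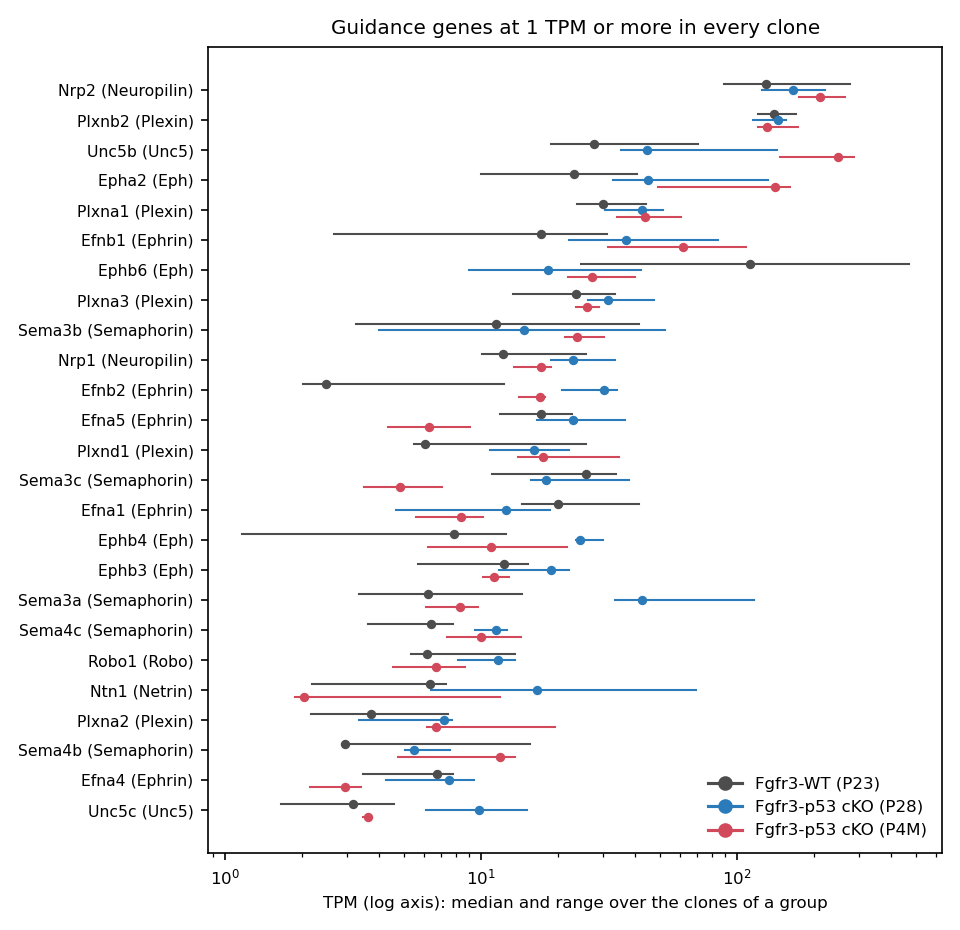
Levels per transcript length (TPM, log axis) of the 25 guidance genes that reached 1 TPM in every clone. Points are medians and lines the full range over 5 Fgfr3-WT (P23), 5 cKO (P28) and 4 cKO (P4M) clones. The groups overlap for Nrp2 and Plxnb2, and Unc5b has the highest median in P4M (249.1 TPM). The ranges of Sema3a in P28 and of Unc5b in P4M lie above those of the other groups.

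Nrp2 and Plxnb2, the receptors of highest mean TPM over the 14 clones, were not called. Plxnb2 lay at 371 to 472 CPM in Fgfr3-WT, 332 to 408 CPM in P28 and 388 to 559.6 CPM in P4M clones. By clone, Nrp2 was at 1210, 414, 591, 704 and 490.1 CPM in Fgfr3-WT, 661, 504, 623, 832 and 542 CPM in P28 and 994, 1184, 769 and 829 CPM in P4M. The groups overlapped for both genes. For all cKO against Fgfr3-WT clones, the log2 fold change was -0.05 (SE 0.11, edgeR adjusted p = 0.737) for Plxnb2 and 0.18 (SE 0.23, edgeR adjusted p = 0.548) for Nrp2. Of the other neuropilin and the A-type plexins that form its complexes, Nrp1 (log2 fold change 0.10, SE 0.24, edgeR adjusted p = 0.742), Plxna1 (log2 fold change 0.32, SE 0.17, edgeR adjusted p = 0.134) and Plxna3 (log2 fold change 0.17, SE 0.22, edgeR adjusted p = 0.542) were not called either. Plxna2 was called higher in P4M alone (log2 fold change 1.11, SE 0.42, edgeR adjusted p = 0.0456), and for all cKO clones it gave 0.66 (SE 0.36, edgeR adjusted p = 0.149). P4M replicate 3 was at 144 CPM of Plxna2. The other P4M clones were at 44.6 to 53.5 CPM, within the Fgfr3-WT range of 15.3 to 58.5 CPM. Plxnd1, a receptor for Sema3e known from vessels, gave 0.49 (SE 0.36, edgeR adjusted p = 0.277). A call here and below means an adjusted p of at most 0.05 over the 17358 genes tested. Higher or lower in all cKO clones refers to the mean of the P28 and P4M groups. Such a call need not hold in each clone or in each group.

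Of the 67 genes, 60 had enough counts to be tested. Epha10, Epha6, Ephb1, Ntn5, Robo3, Robo4 and Sema5b did not. In all cKO against Fgfr3-WT clones, 22 of the 60 (36.7%) were higher and 10 (16.7%) were lower, where 23.1% of all genes tested were higher and 25.7% lower. Against Fgfr3-WT, the P28 clones had 20 guidance genes higher and 7 lower, beside 19.2% and 19.7% of all genes. For the P4M clones the numbers were 19 higher and 13 lower, beside 22.3% and 23.6% of all genes. Both comparisons used the same Fgfr3-WT clones. In both of them 18 guidance genes were called, all in the same direction, while 9 were called in P28 alone and 14 in P4M alone. These numbers were not counted over all genes, so they show nothing particular to guidance genes. The 18 included Epha5, Epha8 and Unc5a, which passed the filter through one side alone, as given below. A gene called in one cKO group alone is not thereby shown to differ between the cKO groups, which was tested separately below. The share of lower guidance genes lay below that of all genes in P28 and near it in P4M.

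A gene that passed the filter through one side alone had to differ. Epha8 and Unc5a reached the filter level of 0.241 CPM in cKO clones alone and Epha5 in Fgfr3-WT clones alone. Another 8 genes (Efna3, Epha3, Epha4, Plxnc1, Sema3f, Sema4a, Sema7a and Unc5d) reached it in fewer than 4 Fgfr3-WT clones. Among the 49 that passed both in at least 4 Fgfr3-WT clones and in at least 4 cKO clones, 15 were higher (30.6%) and 9 lower (18.4%) in all cKO clones, beside 21.6% and 27.1% of the 14342 genes of the same kind. The median log2 fold change of the 60 genes was 0.54, against -0.05 for all genes tested, and the median absolute log2 fold change was 1.25 against 0.64.

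**Figure D2:**
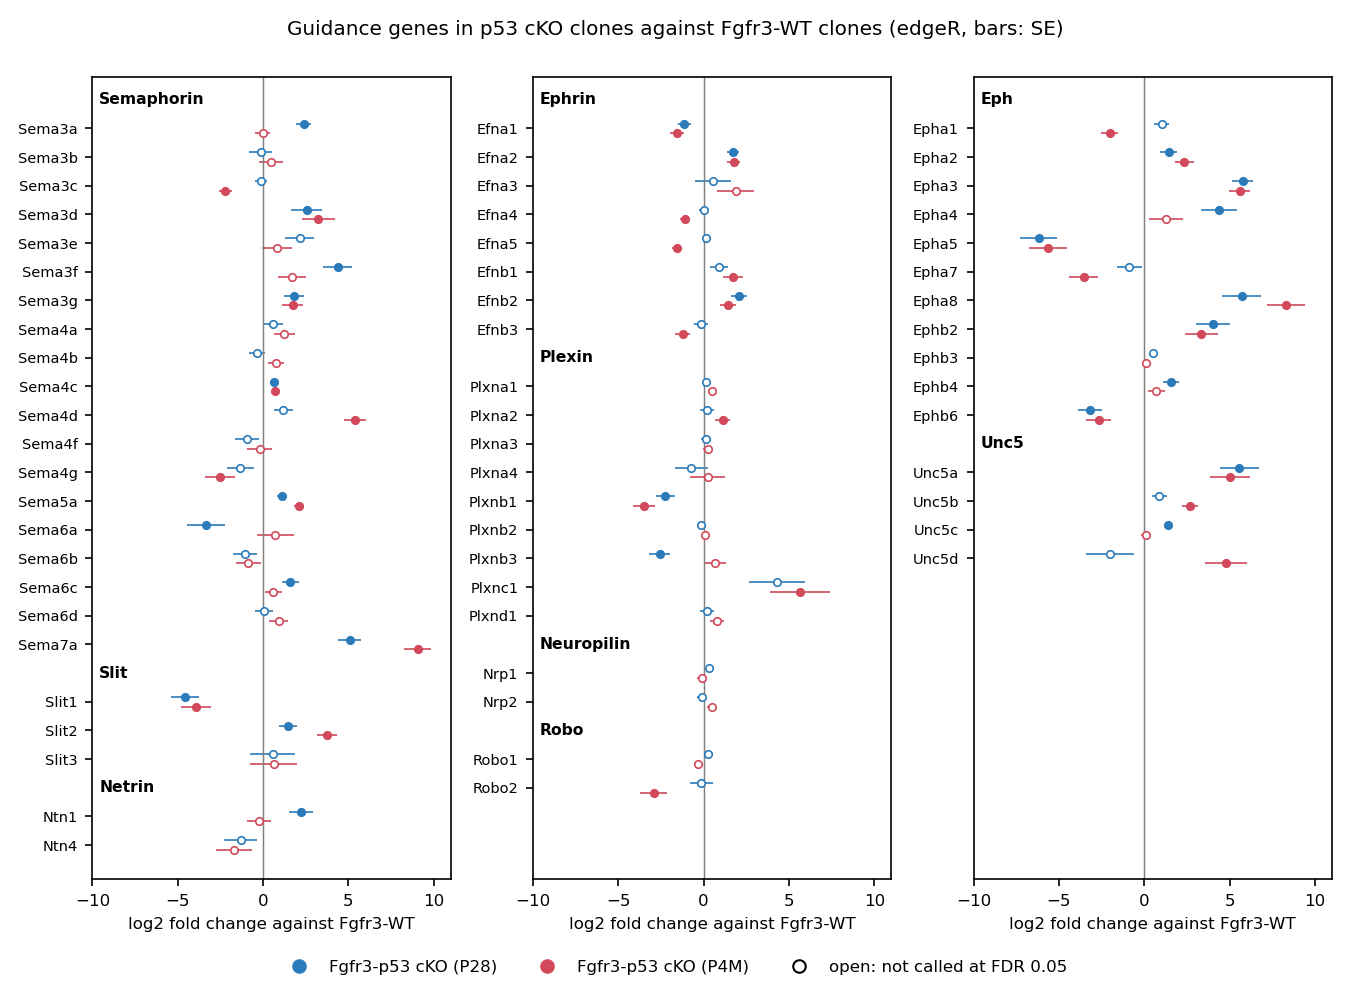
Log2 fold change (horizontal axis) of the 60 tested guidance genes, by family, in cKO (P28) and cKO (P4M) clones against Fgfr3-WT clones. Bars are standard errors from edgeR, and filled points were called at an FDR of 0.05. Sema7a, Epha3, Epha8, Ephb2 and Unc5a lie far to the right, and Epha5, Slit1, Plxnb1 and Ephb6 to the left, in both cKO groups.

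Promoters are shown for 4 genes on which the results below turn, Sema7a, Epha3 and Unc5b, which were higher, and Epha5, which was lower. Each stretch is the 250 bases before the RefSeq transcription start (GRCm38.p6), written 5′ to 3′ on the strand of the gene, with the GC box GGGCGG, on either strand, in capitals.
Sema7a, chr9:57939862-57940111, plus strand: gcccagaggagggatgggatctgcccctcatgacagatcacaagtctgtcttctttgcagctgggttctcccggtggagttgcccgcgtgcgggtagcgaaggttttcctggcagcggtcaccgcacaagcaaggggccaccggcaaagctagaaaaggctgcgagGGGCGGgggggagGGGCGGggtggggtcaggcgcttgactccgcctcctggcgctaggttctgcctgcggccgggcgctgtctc
Epha3, chr16:63864176-63864425, minus strand: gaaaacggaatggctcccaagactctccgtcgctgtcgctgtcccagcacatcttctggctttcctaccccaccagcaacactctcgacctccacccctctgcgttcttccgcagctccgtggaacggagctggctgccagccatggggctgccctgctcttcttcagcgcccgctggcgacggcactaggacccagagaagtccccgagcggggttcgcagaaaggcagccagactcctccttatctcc
Unc5b, chr10:60831582-60831831, minus strand: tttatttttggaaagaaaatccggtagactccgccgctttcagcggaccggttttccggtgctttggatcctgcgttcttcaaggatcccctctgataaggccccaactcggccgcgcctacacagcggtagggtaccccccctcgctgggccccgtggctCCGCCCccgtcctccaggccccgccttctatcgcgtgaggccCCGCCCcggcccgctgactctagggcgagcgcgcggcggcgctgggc
Epha5, chr5:84417383-84417632, minus strand: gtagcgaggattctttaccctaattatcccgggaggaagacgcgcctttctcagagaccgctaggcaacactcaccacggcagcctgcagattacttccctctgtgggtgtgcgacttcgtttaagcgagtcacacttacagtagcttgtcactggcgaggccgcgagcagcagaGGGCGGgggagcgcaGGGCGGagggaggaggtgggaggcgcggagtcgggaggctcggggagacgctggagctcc
Of the 67 genes, 58 had an entry, with 74 promoters among them, and Slit1 and Unc5d were among the 9 without. A GC box occurred in 52 of the 74 (70.3%), in 16 of the 24 promoters of genes higher in all cKO clones (66.7%) and in 10 of the 13 of lower genes (76.9%), beside 32.7% of the 32851 promoters in the table. The core TGTGGT of Runx sites, on either strand, occurred in 9 of the 74 (12.2%), beside 14% of all promoters. A p53 half-site was found in 4 of the 74 (5.41%), beside 7.13% of all, and a full p53 site in none of the 74, beside 0.0639% of all. All motifs were searched on both strands, and a full p53 site is a pair of half-sites at most 13 bases apart. The median number of CpG dinucleotides was 15.5 per 250 bases, beside 6 for all promoters. A match describes these letters only, and elements outside the window were not searched.

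Semaphorins were the largest family. In all cKO clones 8 of the 19 tested were higher (42.1%) and 2 were lower (10.5%), beside 23.1% and 25.7% of all genes. Sema7a, a glycolipid-anchored member that binds integrins and Plxnc1, had the lowest adjusted p of all guidance genes. It reached the filter level in 2 Fgfr3-WT clones, fewer than the 4 needed. It thus entered the test through the cKO clones, where it was high. Sema7a (ENSMUSG00000038264, chromosome 9, 57940112 to 57962865) was at 0.456, 0.0383, 0.243, 0.256 and 0.396 CPM in the Fgfr3-WT clones. It was at 4.73, 9.30, 7.24, 17 and 9.17 CPM in P28 and at 287, 178, 25.5 and 112 CPM in P4M clones. The 3 groups did not overlap. Against Fgfr3-WT, its log2 fold change was 5.07 (SE 0.67, edgeR adjusted p = 0.000156) in P28 and 9.05 (SE 0.78, edgeR adjusted p = 1.09e-05) in P4M. The level in Fgfr3-WT was near the limit of 3 counts (0.0854 to 0.121 CPM by library), so the size of these changes is less certain than their sign.

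Sema4d, a membrane semaphorin that osteoclasts are known to use to restrain osteoblasts through Plxnb1, was at 0.0977, 0.306, 1.42, 0.313 and 0.633 CPM in Fgfr3-WT, 1.42, 0.884, 0.696, 1.13 and 2.10 CPM in P28 and 15.5, 28.2, 18.0 and 29.5 CPM in P4M clones. Only the P4M clones were set apart from the others. edgeR put its log2 fold change at 5.37 (SE 0.63, edgeR adjusted p = 5.16e-05) in P4M and 1.18 (SE 0.54, edgeR adjusted p = 0.0992), not called, in P28. Its receptor Plxnb1 moved in the opposite direction. Plxnb1 (ENSMUSG00000053646, chromosome 9, 109095389 to 109119917) was at 55.9, 85.2, 77.0, 53.4 and 6.09 CPM in Fgfr3-WT, 10.6, 14.1, 9.08, 12.2 and 12.7 CPM in P28 and 5.95, 9.42, 1.84 and 2.76 CPM in P4M clones. All cKO clones lay below Fgfr3-WT replicates 1 to 4, and Fgfr3-WT replicate 5 lay among the cKO clones. Plxnb1 had a log2 fold change of -2.24 (SE 0.56, edgeR adjusted p = 0.0073) in P28 and -3.48 (SE 0.65, edgeR adjusted p = 0.00102) in P4M. Without Fgfr3-WT replicate 5 the call was kept in both. Plxnb3, another plexin B, was lower in P28 (log2 fold change -2.58, SE 0.63, edgeR adjusted p = 0.00606) and not called in P4M. Plxnc1, the Sema7a receptor, was higher in all cKO clones at 4.98 (SE 1.63, edgeR adjusted p = 0.022), but its level by clone ranged from 0.282 to 13.6 CPM in P28 and from 0.357 to 92.8 CPM in P4M, where replicate 3 was the highest. Plxnc1 reached the filter level in 2 Fgfr3-WT clones and needed cKO clones to be tested.

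Sema5a, a semaphorin with thrombospondin repeats, was at 22.1, 14.1, 7.57, 8.31 and 17.4 CPM in Fgfr3-WT, 19.4, 35.2, 42.5, 24.3 and 25.7 CPM in P28 and 53.7, 60.0, 72.5 and 52.4 CPM in P4M. The P4M clones were above all others. Over all cKO clones its log2 fold change was 1.59 (SE 0.28, edgeR adjusted p = 0.000463). Sema4c (log2 fold change 0.66, SE 0.17, edgeR adjusted p = 0.00704), Sema3g (log2 fold change 1.78, SE 0.55, edgeR adjusted p = 0.0171), Sema3d (log2 fold change 2.90, SE 0.87, edgeR adjusted p = 0.0141) and Sema3f (log2 fold change 3.03, SE 0.77, edgeR adjusted p = 0.00545) were also higher. Sema3f was at 20.9 to 48.3 CPM in P28 and 4.03 to 7.19 CPM in P4M clones. Against Fgfr3-WT it was not called in P4M (log2 fold change 1.70, SE 0.80, edgeR adjusted p = 0.0989). Sema3f reached the filter level in 3 Fgfr3-WT clones and needed cKO clones to be tested. Among the lower members, Sema4g was at 0.0809 to 12.9 CPM in Fgfr3-WT and 0.538 to 3.14 CPM in cKO clones (log2 fold change -1.92, SE 0.66, edgeR adjusted p = 0.0276), with overlap. Without Fgfr3-WT replicate 1, the highest, its log2 fold change was -1.31 and the call ended (edgeR adjusted p = 0.113). Sema6a was lower in P28 alone (log2 fold change -3.34, SE 1.13, edgeR adjusted p = 0.0313), and its level in Fgfr3-WT replicate 1 was 32.1 CPM where the other Fgfr3-WT clones had at most 3.92 CPM. Sema3b, which is known as a p53 target, was at 45.1, 16.2, 76.4, 16.3 and 6.25 CPM in Fgfr3-WT, 20.5, 34.8, 72.7, 12.3 and 5.69 CPM in P28 and 43.3, 41.5, 38.4 and 52.0 CPM in P4M. The groups overlapped and the difference was not called (log2 fold change 0.16, SE 0.59, edgeR adjusted p = 0.844).

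Sema3a, a secreted ligand of Nrp1 and Plxna1 that is known to protect bone, differed between the cKO groups. It was at 27.9, 13.4, 19.0, 48.7 and 11.6 CPM in Fgfr3-WT, 96.8, 98.3, 102, 78.3 and 251 CPM in P28 and 23.4, 25.9, 16.2 and 29.6 CPM in P4M clones. All P28 clones lay above all others, and the P4M clones lay within the range of Fgfr3-WT. Sema3a had a log2 fold change against Fgfr3-WT of 2.38 (SE 0.43, edgeR adjusted p = 0.000977) in P28 and -0.02 (SE 0.43, edgeR adjusted p = 0.973) in P4M. The call for all cKO clones ended without Fgfr3-WT replicate 2 (edgeR adjusted p = 0.0523). Of its receptors, Nrp1 was at 25.9, 61.3, 24.6, 34.8 and 61.9 CPM in Fgfr3-WT, 43.5, 40.5, 46.1, 57.8 and 67.1 CPM in P28 and 31.2, 41.5, 44.5 and 39.8 CPM in P4M. Plxna1 was at 142, 179.9, 179, 172 and 274 CPM, 213, 170.4, 229, 214 and 236 CPM and 298, 232, 326 and 194 CPM in the same order. Both overlapped between the groups. Sema3c, which also binds neuropilins, was at 41 to 125 CPM in Fgfr3-WT, 48.6 to 123 CPM in P28 and 13.2 to 25.0 CPM in P4M (log2 fold change against Fgfr3-WT -2.21, SE 0.40, edgeR adjusted p = 0.000739).

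Of the 11 Eph receptors tested, 6 were higher (54.5%) and 3 lower (27.3%) in all cKO clones, beside 23.1% and 25.7% of all genes. The share of lower ones was near that of all genes. Epha8 among the higher and Epha5 among the lower had to differ. Epha3 (ENSMUSG00000052504, chromosome 16, 63543534 to 63864175) was at 0.749, 0.574, 0.121, 0.455 and 0.119 CPM in Fgfr3-WT, 13.7, 11.5, 13.2, 22.8 and 51.2 CPM in P28 and 23.2, 21.8, 23.2 and 11.6 CPM in P4M clones. All cKO clones lay above all Fgfr3-WT clones, and the P28 and P4M clones overlapped. Epha3 differed from Fgfr3-WT by a log2 fold change of 5.77 (SE 0.62, edgeR adjusted p = 4.29e-05) in P28 and 5.60 (SE 0.62, edgeR adjusted p = 4e-05) in P4M. It reached the filter level in 3 Fgfr3-WT clones, so it entered the test through the cKO clones, where it was high. Ephb2, which binds B-type ephrins, was at 0.0326, 13.8, 1.38, 0.37 and 7.68 CPM in Fgfr3-WT, 70.1, 77.6, 57.0, 88.9 and 86.1 CPM in P28 and 63.3, 47.4, 19.2 and 58.0 CPM in P4M. All cKO clones lay above all Fgfr3-WT clones, while P28 and P4M clones overlapped (log2 fold change 3.69, SE 0.92, edgeR adjusted p = 0.00507). Epha8 had 1 count over all Fgfr3-WT clones and was at 0.086, 0.406, 0.0795, 1.03 and 0.999 CPM in P28 and 3.88, 5.55, 1.13 and 2.07 CPM in P4M. The ratio of summed counts per library size was 71.8 (exact 95% interval 12.6 to 2862) in P28 and 430.3 (76.9 to 17020) in P4M. These intervals cover counting error only. The call for all cKO clones had an edgeR adjusted p of 0.000202. Epha8 reached the filter level in cKO clones alone and had to differ, so this call is no separate evidence of a difference. Epha4 was higher in P28 (log2 fold change 4.38, SE 1.05, edgeR adjusted p = 0.00561) and not called in P4M (log2 fold change 1.28, SE 0.99, edgeR adjusted p = 0.309). Epha4 reached the filter level in 2 Fgfr3-WT clones and also needed cKO clones to be tested.

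Epha2, a receptor of ephrin-A1 that is also a known p53 target, was at 105, 25.9, 59.3, 36.0 and 82.6 CPM in Fgfr3-WT, 85.6, 106, 71.6, 288 and 284 CPM in P28 and 411, 340.3, 127 and 386 CPM in P4M clones. It overlapped between Fgfr3-WT and cKO clones, but all P4M clones lay above all Fgfr3-WT clones. Epha2 had a log2 fold change of 1.43 (SE 0.50, edgeR adjusted p = 0.0366) in P28 and 2.35 (SE 0.53, edgeR adjusted p = 0.00326) in P4M. The P28 call ended in 5 of the 14 fits without a clone (edgeR adjusted p up to 0.0994). Its main ligand Efna1 was lower (log2 fold change -1.36, SE 0.32, edgeR adjusted p = 0.00378), at 17.4, 38.0, 20.5, 15.3 and 13.2 CPM in Fgfr3-WT, 14.3, 9.99, 13, 3.44 and 6.63 CPM in P28 and 6.41, 8.22, 4.78 and 8.68 CPM in P4M. A single P28 clone lay within the range of Fgfr3-WT.

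**Figure D3:**
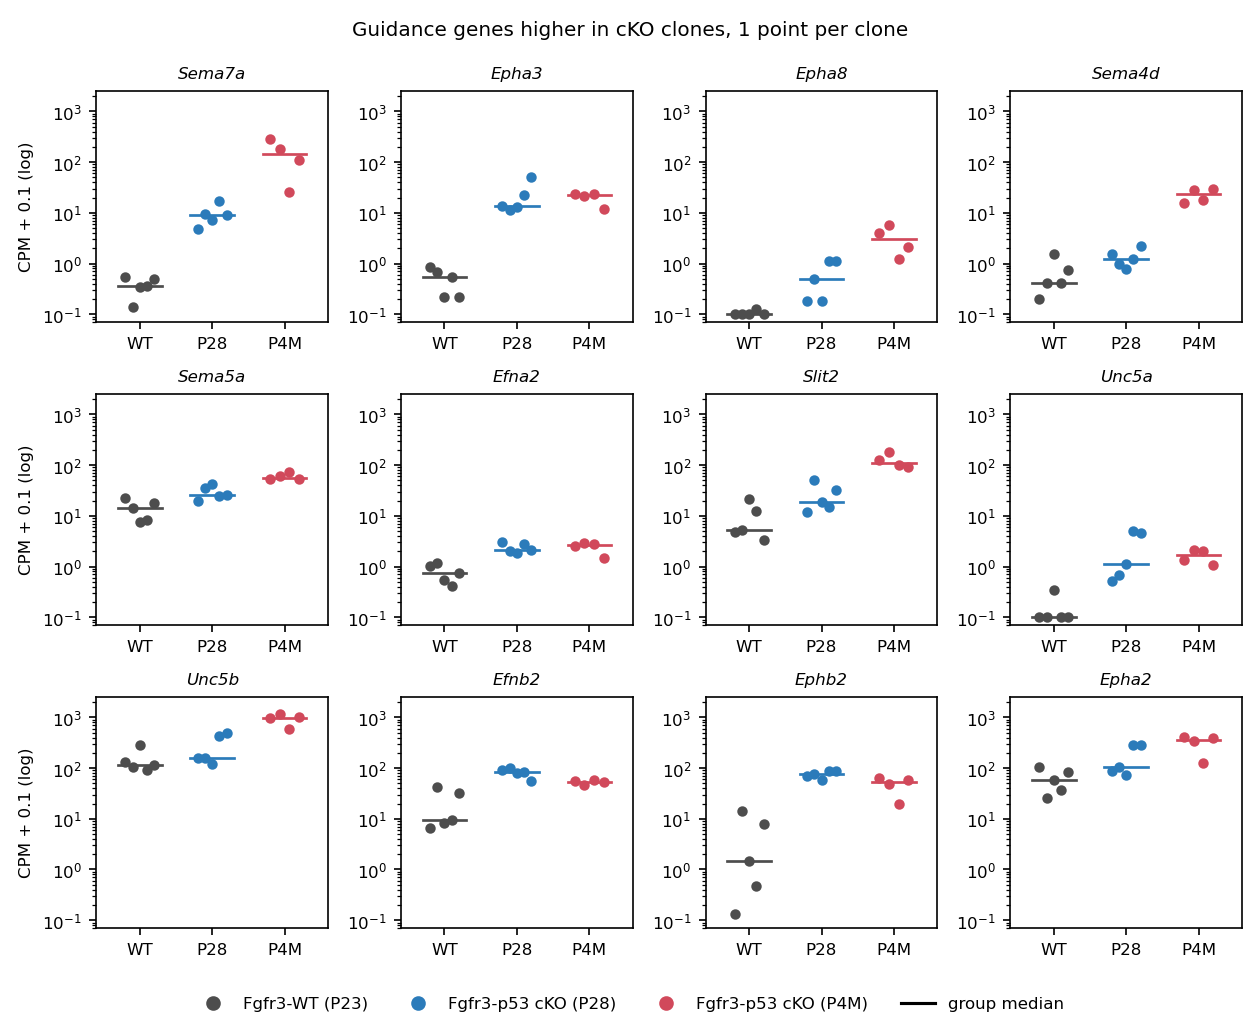
CPM + 0.1 (log axis) by clone for the 12 guidance genes with the lowest adjusted p among those higher in the mean of both cKO groups. Points are clones and lines group medians. The 9 cKO clones lie above all 5 Fgfr3-WT clones for Sema7a, Epha3, Epha8, Efna2, Unc5a, Efnb2 and Ephb2, and the groups overlap for the other 5 genes. Epha8 and Unc5a reached the filter level in cKO clones alone and had to differ. Sema7a and Epha3 reached it in fewer than 4 Fgfr3-WT clones and needed cKO clones to be tested.

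The receptors that fell in both cKO groups were Epha5, Ephb6 and Plxnb1, and Epha7 was lower in P4M. Epha5 (ENSMUSG00000029245, chromosome 5, 84054761 to 84417382) was at 2.41, 0.689, 0.607, 3.33 and 0.356 CPM in Fgfr3-WT clones. It was at 0 in 3 of the 5 P28 clones and in 2 of the 4 P4M clones, and the other cKO clones had at most 0.0923 CPM. No cKO clone reached the range of Fgfr3-WT. The log2 fold change of all cKO clones was -5.90 (SE 0.82, edgeR adjusted p = 0.000107), from levels so low that its size is uncertain. Epha5 reached the filter level in Fgfr3-WT clones alone and had to differ, so the call and the lack of overlap followed from the filter. Ephb6, an Eph receptor without kinase activity, was at 60.4, 562, 287, 145.3 and 1189 CPM in Fgfr3-WT, 39.9, 20.5, 28.0, 89.5 and 73.2 CPM in P28 and 66.8, 53.7, 66.4 and 96.7 CPM in P4M clones. Fgfr3-WT replicate 1 lay among the cKO clones and replicate 5 was the highest. The log2 fold change was -2.91 (SE 0.56, edgeR adjusted p = 0.00091). Without replicate 5 it was -2.14, and the gene remained called. Epha7 was at 0.688 to 16.4 CPM in Fgfr3-WT, 1.08 to 4.73 CPM in P28 and 0.237 to 0.77 CPM in P4M (log2 fold change -3.55, SE 0.86, edgeR adjusted p = 0.00483). Its call for all cKO clones ended without Fgfr3-WT replicate 5 (edgeR adjusted p = 0.064).

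Among the 8 ephrins, Efna2, Efnb1 and Efnb2 were higher (37.5%) and Efna1 and Efna5 lower (25.0%) in the mean of the cKO groups. These shares stand beside 23.1% and 25.7% of all genes tested. Efnb1 was not called in P28 (log2 fold change 0.89, SE 0.55, edgeR adjusted p = 0.213). Efna5 was not called in P28 (log2 fold change 0.15, SE 0.27, edgeR adjusted p = 0.699) and was lower in P4M (log2 fold change -1.55, SE 0.30, edgeR adjusted p = 0.0011). Efnb2, the partner of Ephb4 in osteoclast and osteoblast contact, was at 6.45, 41.7, 8.25, 9.19 and 31.7 CPM in Fgfr3-WT, 89.5, 98.8, 78.8, 83.0 and 56.3 CPM in P28 and 54.5, 45.5, 57.5 and 52.1 CPM in P4M. No cKO clone overlapped with Fgfr3-WT (log2 fold change 1.75, SE 0.42, edgeR adjusted p = 0.0043). The call of Efna5 for all cKO clones ended without Fgfr3-WT replicate 2 or 4 (edgeR adjusted p up to 0.0855). Ephb4 was at 35.1, 31.6, 14.3, 3.73 and 22.3 CPM, 65.4, 63.1, 71.6, 57.4 and 56.4 CPM and 17.1, 38.3, 60.5 and 24.4 CPM in the same order. It was higher in P28, where no clone overlapped with Fgfr3-WT (log2 fold change 1.55, SE 0.47, edgeR adjusted p = 0.0198), and not called in P4M (log2 fold change 0.71, SE 0.49, edgeR adjusted p = 0.251). Its call for all cKO clones (log2 fold change 1.13, SE 0.43, edgeR adjusted p = 0.0423) ended in 9 of the 14 fits that left out a clone (edgeR adjusted p up to 0.0953). Efna2 stood at 0.313 to 1.07 CPM in Fgfr3-WT and 1.35 to 2.88 CPM in cKO clones (log2 fold change 1.75, SE 0.33, edgeR adjusted p = 0.000843). Efnb1 was at 5.67, 69.9, 37.7, 39.9 and 59.8 CPM in Fgfr3-WT, 69.6, 47.0, 40.1, 154 and 85.1 CPM in P28 and 121, 234, 66.5 and 136 CPM in P4M. Fgfr3-WT replicate 1 was far below the others. The call of Efnb1 for all cKO clones (log2 fold change 1.3, SE 0.51, edgeR adjusted p = 0.0473) ended in 10 of the 14 such fits (edgeR adjusted p up to 0.0898).

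Slit ligands went in opposite directions. Slit2 was at 4.69, 5.17, 21, 12.3 and 3.21 CPM in Fgfr3-WT, 11.9, 50.5, 18.7, 14.8 and 32.8 CPM in P28 and 124, 179.6, 99.5 and 90.1 CPM in P4M clones. The P4M clones were above all others, and the P28 clones overlapped with Fgfr3-WT. Slit2 had a log2 fold change of 1.47 (SE 0.53, edgeR adjusted p = 0.0399) in P28 and 3.73 (SE 0.58, edgeR adjusted p = 0.000321) in P4M, and the P28 call ended in 7 of the 14 fits without a clone (edgeR adjusted p up to 0.123). Slit1 was at 5.60, 1.65, 24.2, 0.996 and 1.66 CPM in Fgfr3-WT, 0.344, 0.359, 0.258, 0.262 and 0.179 CPM in P28 and 0.415, 0.523, 0.395 and 0.451 CPM in P4M. All cKO clones lay below all Fgfr3-WT clones (log2 fold change -4.25, SE 0.65, edgeR adjusted p = 0.000197). Without Fgfr3-WT replicate 3, which had 24.2 CPM, the log2 fold change was -2.80 and the call was kept. Slit3, which osteoclasts release, ranged from 0 to 69.5 CPM in Fgfr3-WT and from 9.0 to 81.0 CPM in cKO clones and was not called (log2 fold change 0.59, SE 1.18, edgeR adjusted p = 0.703).

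Robo1 and Robo2, which bind all Slits, were the Robo receptors with counts to test. Robo1 was at 62.1, 26.3, 41.8, 34.8 and 25.1 CPM in Fgfr3-WT, 55.1, 32.1, 46.5, 48.9 and 46.0 CPM in P28 and 28.8, 40.9, 31.1 and 21.1 CPM in P4M (log2 fold change -0.03, SE 0.22, edgeR adjusted p = 0.935). Robo2 was at 13.7, 70.5, 11.8, 18.6 and 3.92 CPM, 39.0, 20.0, 20.6, 15.0 and 13.4 CPM and 1.43, 5.51, 4.38 and 1.07 CPM in the same order. The P4M clones of Robo2 were below all P28 clones but overlapped with Fgfr3-WT. The log2 fold change against Fgfr3-WT was -2.94 (SE 0.78, edgeR adjusted p = 0.00806) in P4M and -0.13 (SE 0.66, edgeR adjusted p = 0.891) in P28. Its call for all cKO clones (log2 fold change -1.53, SE 0.57, edgeR adjusted p = 0.0392) ended in 8 of the 14 fits without a clone, and without Fgfr3-WT replicate 2, the highest, the log2 fold change was -0.56 (edgeR adjusted p = 0.362). Robo3 and Robo4, the latter known from endothelium, had at most 0.37 and 0.0326 CPM in any clone.

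Netrin-1 (Ntn1), a secreted ligand, was at 18.9, 23.5, 12.8, 9.25 and 22 CPM in Fgfr3-WT, 45.9, 214, 78.7, 46.0 and 17.9 CPM in P28 and 6.94, 6.71, 39.3 and 6.09 CPM in P4M clones. P28 replicate 2 was the highest and P4M replicate 3 stood above the other P4M clones. Ntn1 was higher in P28 (log2 fold change 2.22, SE 0.68, edgeR adjusted p = 0.0209) and not called in P4M (log2 fold change -0.23, SE 0.70, edgeR adjusted p = 0.81). Without P28 replicate 2 the former had an edgeR adjusted p of 0.0805. Ntn4 gave -1.51 (SE 0.83, edgeR adjusted p = 0.148) for all cKO clones.

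Unc5 receptors were tested for all 4 members, and 3 were higher (75.0%) in all cKO clones, beside 23.1% of all genes. Among these 3 was Unc5a, which had to differ. Unc5b, a netrin receptor that is known as a p53 target, lies on chromosome 10 from 60762593 to 60831581. It was at 131, 107, 289.5, 90.7 and 113 CPM in Fgfr3-WT, 157, 156, 120.3, 433 and 484 CPM in P28 and 957, 1172, 589 and 997 CPM in P4M clones. All P4M clones lay above all other clones, while 3 of the P28 clones lay within the range of Fgfr3-WT and P28 replicates 4 and 5 above it. Unc5b had a log2 fold change of 2.67 (SE 0.47, edgeR adjusted p = 0.000691) in P4M and 0.89 (SE 0.43, edgeR adjusted p = 0.123), not called, in P28. Unc5a, also a known p53 target, was at 0 in 4 Fgfr3-WT clones and at 0.243 CPM in replicate 3. In cKO clones it was at 0.409, 0.574, 1.01, 4.86 and 4.56 CPM in P28 and 1.27, 2.03, 1.94 and 0.977 CPM in P4M. No cKO clone overlapped with Fgfr3-WT (log2 fold change 5.30, SE 1.11, edgeR adjusted p = 0.00171). Unc5a reached the filter level in cKO clones alone and had to differ, so the call and the lack of overlap followed from the filter. As for Unc5b and Epha2, P28 replicates 4 and 5 were the 2 highest P28 clones. Unc5c was higher in P28 (log2 fold change 1.41, SE 0.27, edgeR adjusted p = 0.00155), at 30.6 to 72.5 CPM against 10.7 to 28.7 CPM in Fgfr3-WT, and not called in P4M (log2 fold change 0.09, SE 0.28, edgeR adjusted p = 0.818). Its call for all cKO clones ended without Fgfr3-WT replicate 2 (edgeR adjusted p = 0.0571).

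**Figure D4:**
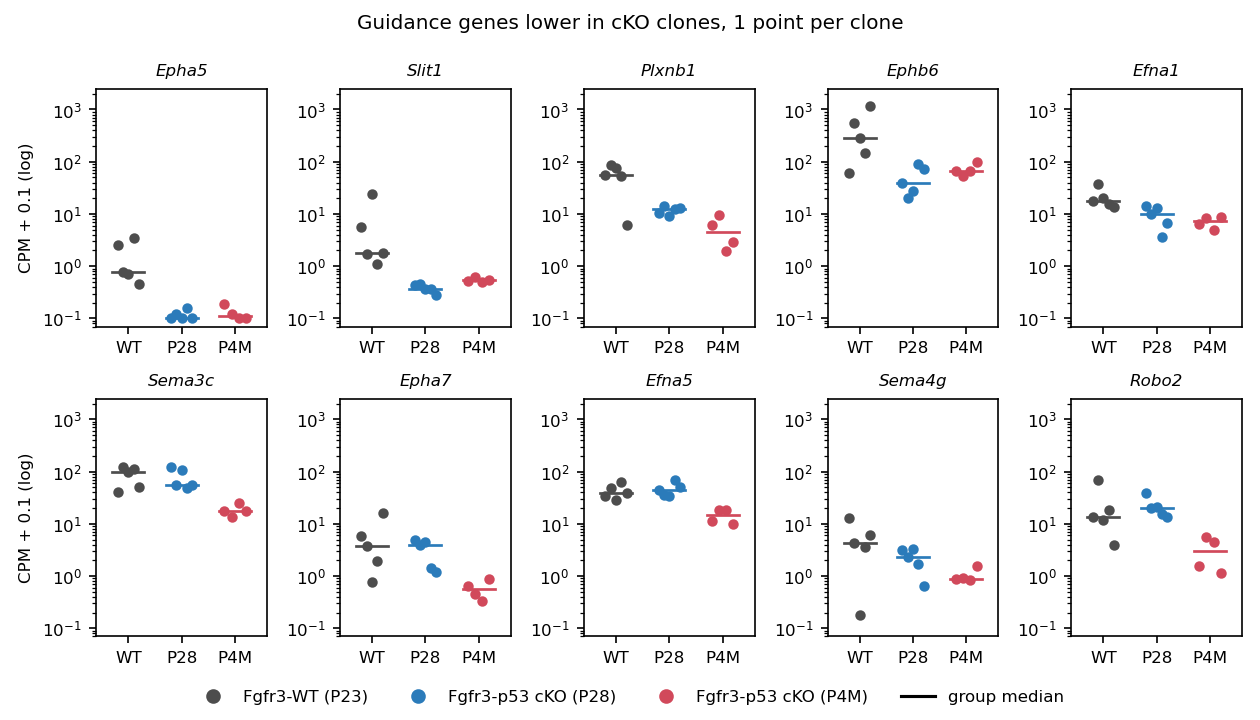
CPM + 0.1 (log axis) by clone for the 10 guidance genes lower in the mean of both cKO groups. Points are clones and lines group medians. Epha5 and Slit1 show no overlap between Fgfr3-WT and cKO clones, and Fgfr3-WT replicate 5 is the lowest point of its group for Plxnb1 and the highest for Ephb6. Epha5 reached the filter level in Fgfr3-WT clones alone and had to differ.

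Over all 9 cKO clones, 8 guidance genes (13.3% of those tested) lay above all 5 Fgfr3-WT clones, beside 9.73% of all genes. These were Efna2, Efnb2, Epha3, Epha8, Ephb2, Sema3f, Sema7a and Unc5a. Epha5 and Slit1 lay below all Fgfr3-WT clones, which made 3.33% beside 8.38% of all genes. Epha8 and Unc5a passed the filter through cKO clones alone and Epha5 through Fgfr3-WT clones alone, so they had to differ. Epha3, Sema3f and Sema7a reached the filter level in fewer than 4 Fgfr3-WT clones. These shares were not counted over the genes that passed on both sides. Within a group, the guidance genes had a higher median SD than all genes. The median SD over clones of log2(CPM + 0.1) was 1.06 in Fgfr3-WT, 0.61 in P28 and 0.47 in P4M for the 60 genes, beside 0.49, 0.31 and 0.29 for all genes tested. Slit3 had the largest SD in Fgfr3-WT (3.99), and Plxnc1 in P28 (2.21) and in P4M (3.63). The smallest SD in Fgfr3-WT was that of Epha8 (0.16), which had 1 count there. In cKO clones the smallest were those of Plxnb2 in P28 (0.11) and Unc5c in P4M (0.07).

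Between P4M and P28 clones, both of Fgfr3-p53 cKO genotype and with the same number in the library names, 6 guidance genes were higher (10% of those tested) and 7 lower (11.7%), beside 3.34% and 3.88% of all genes. Among the 49 genes that passed the filter both in Fgfr3-WT and in cKO clones, 4 were higher (8.16%) and 7 lower (14.3%), beside 3.32% and 3.84% of all genes of that kind. These genes did not have to pass in P28 and in P4M clones each. Plxnb3, which was among those higher, reached the filter level in 1 P28 clone. The median absolute log2 fold change was 0.91 for the 60 genes and 0.38 for all genes. In 10 guidance genes all P4M clones lay above all P28 clones (16.7%, beside 9.07% of all genes), and in 10 they lay below (16.7%, beside 9.96%). The count of lower genes was 11 with DESeq2 and 4 to 9 when a clone was left out, and that of higher genes was 8 and 4 to 9.

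The higher genes were Sema4d (log2 fold change 4.19, SE 0.59, edgeR adjusted p = 0.00365), Sema7a (log2 fold change 3.99, SE 0.60, edgeR adjusted p = 0.00502), Plxnb3 (log2 fold change 3.26, SE 0.66, edgeR adjusted p = 0.0135), Unc5d (log2 fold change 6.80, SE 1.39, edgeR adjusted p = 0.0145), Slit2 (log2 fold change 2.26, SE 0.55, edgeR adjusted p = 0.0292) and Unc5b (log2 fold change 1.78, SE 0.46, edgeR adjusted p = 0.0348). Unc5d, a receptor known from the developing cortex, was at 0 in 3 P28 clones and at 0.0215 and 0.102 CPM in the other two. It was at 3.39, 2.12, 0.908 and 5.21 CPM in P4M clones. In Fgfr3-WT it was at 0.489 CPM in replicate 1 and at 0 in the others. It reached the filter level in no P28 clone, in all 4 P4M clones and in 1 Fgfr3-WT clone, so it entered the test through the group where it was high and had to differ. Plxnb3 was at 0.912, 0.383, 0.607, 1.42 and 1.70 CPM in Fgfr3-WT, 0.215, 0.0239, 0.119, 0.262 and 0.205 CPM in P28 and 1.55, 2.37, 0.336 and 2.20 CPM in P4M clones, so that the P28 clones were the low ones. The calls of Slit2 and Unc5b each ended in 6 of the 14 fits without a clone, with edgeR adjusted p up to 0.0797 and 0.0905.

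The lower genes were Epha1 (log2 fold change -3.03, SE 0.52, edgeR adjusted p = 0.00757), Efna5 (log2 fold change -1.70, SE 0.30, edgeR adjusted p = 0.00894), Sema3c (log2 fold change -2.08, SE 0.39, edgeR adjusted p = 0.0111), Sema3a (log2 fold change -2.40, SE 0.46, edgeR adjusted p = 0.0122), Unc5c (log2 fold change -1.32, SE 0.29, edgeR adjusted p = 0.02), Efna4 (log2 fold change -1.10, SE 0.30, edgeR adjusted p = 0.0441) and Robo2 (log2 fold change -2.80, SE 0.77, edgeR adjusted p = 0.0448). Epha1, an ephrin-A receptor of epithelia, was at 0.456, 1.76, 0.688, 1.62 and 1.66 CPM in Fgfr3-WT, 3.70, 1.22, 3.02, 1.67 and 2.90 CPM in P28 and 0.277, 0.159, 0.434 and 0.338 CPM in P4M clones. All P4M clones were below all others. Efna5, an anchored ephrin that repels axons, was at 33.9, 47.9, 28.6, 63.1 and 38.2 CPM in Fgfr3-WT, 44.4, 35.0, 34.2, 69.8 and 51.0 CPM in P28 and 11.2, 18.7, 18.1 and 9.66 CPM in P4M. Here too all P4M clones were the lowest. Sema3c was at 41, 125, 96.8, 111 and 50.3 CPM, 123, 54.9, 105, 48.6 and 55.5 CPM and 17.2, 13.2, 25.0 and 17.6 CPM in the same order, with P4M again below the rest. Unc5c was at 72.5, 42.6, 48.7, 30.6 and 72.4 CPM in P28 and 22.3, 22.3, 20.7 and 20.2 CPM in P4M, the latter within the range of Fgfr3-WT. Efna4 was at 7.92, 6.55, 6.16, 4.98 and 3.43 CPM in P28 and 3.18, 3.28, 2.39 and 2.01 CPM in P4M, a narrow gap. The calls of Efna4 and Robo2 ended in 9 of 14 fits without a clone (edgeR adjusted p up to 0.118 and 0.128), and Unc5c in 4 (up to 0.0585).

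**Figure D5:**
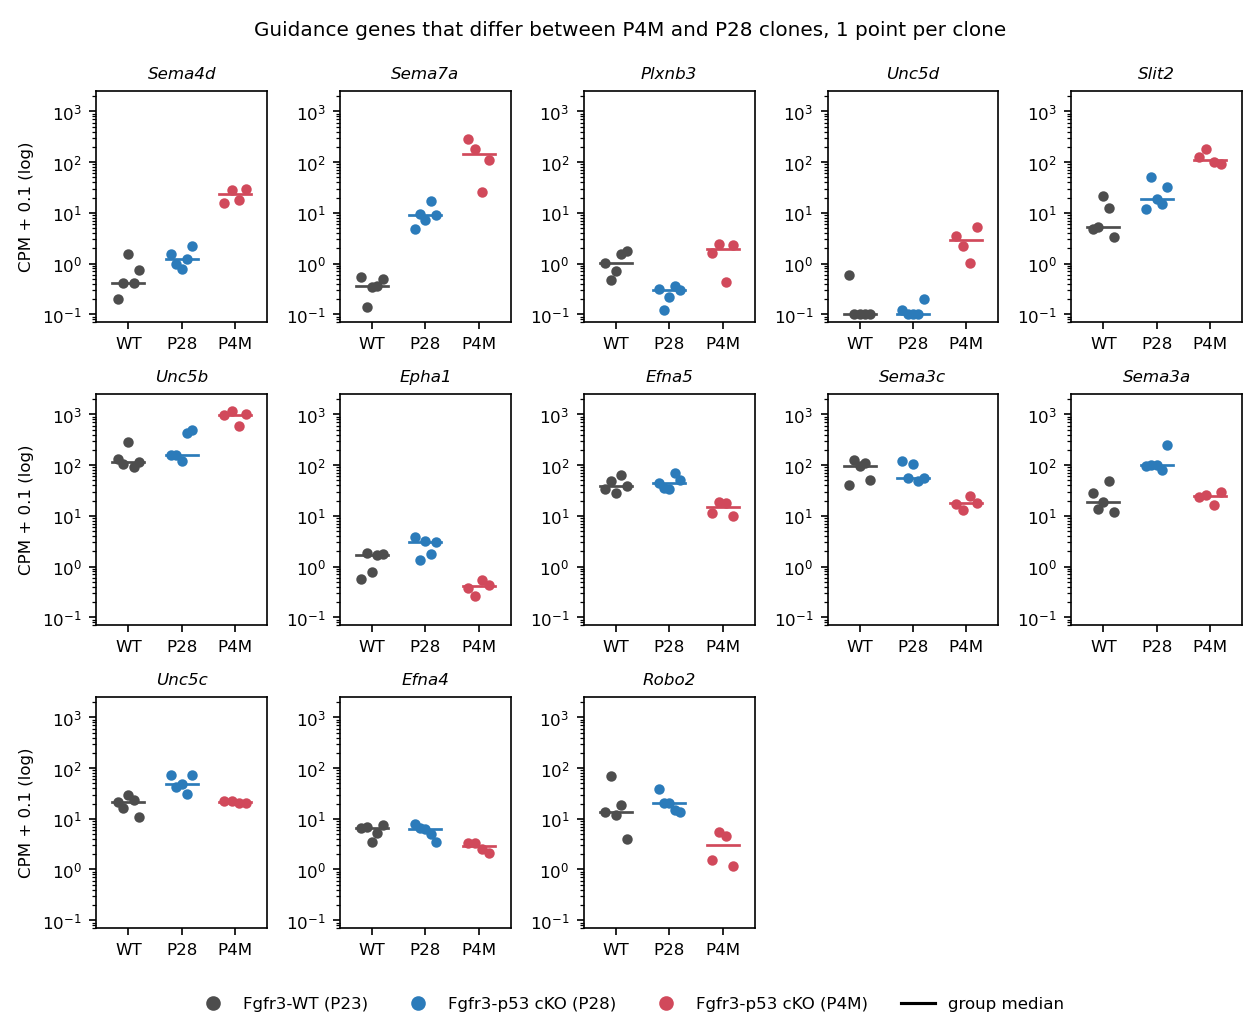
CPM + 0.1 (log axis) by clone for the 13 guidance genes that differed between P4M and P28 clones. Points are clones and lines group medians. The P4M and P28 clones do not overlap in any panel. Sema4d, Sema7a, Slit2 and Unc5b are highest in P4M, whereas Sema3a and Unc5c are highest in P28 and lie in the Fgfr3-WT range in P4M.

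Of the untested genes, Epha6 was at 0 in all cKO clones and at 0.684, 1.42, 0, 0.626 and 0.0791 CPM in Fgfr3-WT. Set against a limit of 3 counts in a library, the Fgfr3-WT mean of 0.561 CPM was at least 7.3-fold higher than P28 and 8.11-fold higher than P4M. Ephb1 was at 0 in all Fgfr3-WT clones and at 0.115, 0.159, 4.11 and 0.094 CPM in P4M. A single clone, replicate 3, held most of the P4M counts, so the bound of at least 9.25-fold for its mean rested on that clone.

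Other genes of guidance signalling were counted from 2 lists. Of 20 further ligands and receptors, 19 were tested, and 2 were higher (10.5%) and 4 lower (21.1%) in all cKO clones, beside 23.1% and 25.7% of all genes tested. Neo1, or neogenin, a receptor of netrins and repulsive guidance molecules, was at 302 to 483 CPM in Fgfr3-WT, 218 to 291 CPM in P28 and 173 to 348 CPM in P4M clones (log2 fold change -0.60, SE 0.17, edgeR adjusted p = 0.00986). Its ligand Rgma was at 24.5 to 44.2 CPM in Fgfr3-WT, 1.95 to 44.8 CPM in P28 and 1.92 to 4.74 CPM in P4M clones and was lower in P4M against P28 (log2 fold change -3.14, SE 0.77, edgeR adjusted p = 0.0297). Dscam, an adhesion receptor that binds netrin-1, was at 0 to 0.0326 CPM in Fgfr3-WT, 0.215 to 2.04 CPM in P28 and 0 to 0.0376 CPM in P4M clones. With Fgfr3-WT and P4M below the limit of 3 counts, it entered the test through the P28 clones and had to differ, so no fold change is given. Against Fgfr3-WT, 3 genes of this list were higher (15.8%) and 2 lower (10.5%) in P28, beside 19.2% and 19.7% of all genes. In P4M none was higher and 3 were lower (15.8%), beside 22.3% and 23.6%. Of 40 cytoplasmic transducers, 38 were tested, and 17 were higher (44.7%) and 4 lower (10.5%) in all cKO clones, beside the same shares of all genes. Dpysl3, a collapsin response mediator that acts downstream of Sema3a, was at 12.9 to 112 CPM in Fgfr3-WT, 288 to 460.1 CPM in P28 and 412 to 1156 CPM in P4M clones (log2 fold change 3.08, SE 0.49, edgeR adjusted p = 0.000254). Mical2, an enzyme that oxidises actin, was at 2.08 to 36.0 CPM in Fgfr3-WT, 72.1 to 101 CPM in P28 and 76.2 to 100.4 CPM in P4M clones (log2 fold change 2.71, SE 0.52, edgeR adjusted p = 0.000924). Among the lower ones were the kinase Pak1 (log2 fold change -1.04, SE 0.18, edgeR adjusted p = 0.000497) and Srgap3, a partner of Robo receptors (log2 fold change -1.07, SE 0.25, edgeR adjusted p = 0.00355). Between P4M and P28 clones 1 of the 38 transducers (2.63%) was higher, beside 3.34% of all genes, and none was lower. This was Arhgef11 (log2 fold change 0.51, SE 0.14, edgeR adjusted p = 0.0481).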

How the data were processed

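The authors prepared cDNA from clones by SMART-Seq and placed the single-end reads on mm10 by TopHat and Bowtie2. The count table deposited by the authors holds whole-number counts of reads that HTSeq assigned to one gene, so reads shared with a paralog may be lost. The TPM values, also deposited by the authors, are scaled by transcript length, by a program not given in the sources used here. They served for levels between genes. Tables of normalized counts, FPKM and rlog were not used.

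Counts were tested in R 4.3.3 with edgeR 4.0.16: filterByExpr by group, TMM, a robust quasi-likelihood fit of 3 group means over all 14 clones, and Benjamini-Hochberg adjustment over 17358 genes at an FDR of 0.05. The mean of both cKO groups was set against Fgfr3-WT, as was each cKO group, and P4M against P28. SE is the absolute log2 fold change over the square root of F. CPM use TMM-scaled totals. A constant of 0.1 was added before log2 for SD and plots. Totals of 25688946 to 52857424 counts put 3 counts at 0.0564 to 0.121 CPM. Intervals and limits cover counting error only, since reads had no molecular identifiers. The design assumed a count test, and the same steps were tested on simulated data. The simulated clones were independent and few genes were changed, so this does not measure errors in the real comparisons.

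Members and lists were chosen with earlier results of these data known. Values by clone are given, in text or plots, for up to 12 called members of lowest adjusted p per direction in all cKO against Fgfr3-WT, up to 8 in P4M against P28, the member of highest mean TPM in each family, the known p53 targets Unc5a, Unc5b, Sema3b and Epha2, and pairs described in bone. Coordinates are of mm10 in GENCODE release M21, and promoters of RefSeq. Alternatives were DESeq2 1.42.0, RLE or no scaling, no filter, at least 10 counts in every clone, only the groups compared, calls limited to absolute log2 changes of 1 or more, and each clone left out.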

Additional observations from a re-analysis of the deposited data

Results flagged for a closer look

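Of 114 groups of named genes examined for a clone far from the others of its group, 13 held one. In 3 of these all other clones of the group were at 0, so that any single clone with counts stands apart, and these are Epha8, Unc5a and Unc5d in Fgfr3-WT. For the other 10, chance flags about 1 in 20 groups. In Fgfr3-WT these were replicate 1 for Efnb1 (5.67 CPM) and Unc5d (0.489 CPM), replicate 3 for Unc5a (0.243 CPM), replicate 4 for Epha8 (0.0284 CPM, a single count) and replicate 5 for Plxnb1 (6.09 CPM). In P28 clones they were replicate 4 for Slit3 (81.0 CPM) and replicate 5 for Sema3a (251 CPM) and Unc5d (0.102 CPM). In P4M clones they were replicate 3 for Epha2 (127 CPM) and Ntn1 (39.3 CPM), and replicate 4 for Efna2 (1.35 CPM), Epha3 (11.6 CPM) and Sema4g (1.47 CPM).

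The P4M and P28 clones, which differ in age, mouse and passage, differed from each other in 13 genes, with no Fgfr3-WT clones at 4 months to set beside them. The log2 fold change was 4.19 for Sema4d, 3.99 for Sema7a, 3.26 for Plxnb3, 6.80 for Unc5d, 2.26 for Slit2 and 1.78 for Unc5b. It was -3.03 for Epha1, -1.70 for Efna5, -2.08 for Sema3c, -2.40 for Sema3a, -1.32 for Unc5c, -1.10 for Efna4 and -2.80 for Robo2.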

How the results depend on the processing

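None of the 85 calls of named genes reversed direction under an alternative, while 23 of the 67 comparisons in which a named gene was not called had log2 fold changes of both signs over the alternatives. The guidance genes counted at an adjusted p of at most 0.05 changed by over 1.5 times in the following cases. With at least 10 counts required in every clone, 13 were higher in all cKO against Fgfr3-WT, and 13 were higher and 4 lower in P28. Under the same filter 10 were higher in P4M, and 3 were higher in P4M against P28. Fewer genes were tested under this filter, and its part in these counts was not tested. The number lower in P4M against P28, 7 as reported, was 11 with DESeq2 and 11 in a fit of only these 2 groups. It lay between 4 and 9 when a clone was left out, and was 4 without P28 replicate 1 or without P4M replicate 1, 2 or 4. The cause was not tested. Of the 85 calls, 65 were kept under every alternative in which the gene was tested. The other 20 were lost in at least 1 fit without a clone. Requiring at least 10 counts in every clone left out genes such as Sema7a, Epha3 and Slit1. Calls of Epha5, Epha8 and Unc5a, which had to differ, were among the 65. For all cKO against Fgfr3-WT a fit of only the groups compared is the reported one. The replicate numbers are running numbers within a group and pair no clones. No paired analysis was possible because the labels give no shared replicate. Depth limits genes near 3 counts, such as Epha5, Epha8, Unc5a and Unc5d, whose fold changes have no firm size.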

Other observations

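P4M replicate 3 differed from the other P4M clones in several guidance genes at once. It had the highest P4M level of Plxnc1 (92.8 CPM against at most 1.38 CPM in the others), Plxna2 (144 CPM against at most 53.5 CPM), Plxnd1 (92.2 CPM against at most 57.1 CPM) and Ephb1 (4.11 CPM against at most 0.159 CPM). It had the lowest P4M level of Sema7a (25.5 CPM), Ephb2 (19.2 CPM), Plxnb3 (0.336 CPM) and Unc5b (589 CPM). The same clone had the lowest osteoblast marker sum of the P4M group, 8797 CPM, and the highest endothelial marker sum, 12.8 CPM. These genes were chosen after their values were seen, and no test was made.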
